A study of Mus musculus with 8 samples.

Results

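The 10 genes Nkx3-2, Barx1, Hlx, Foxf1, Twist1, Prrx1, Tcf21, Osr1, Tlx1 and Nkx2-5 encode transcription factors of the mesenchyme around the early pancreas, the spleen primordium and the adjoining stomach and gut. They were chosen by symbol with earlier results of these data known, so shares of all genes printed beside their counts are a description and no test. A gene was taken where a probe set of the array carried that 1 symbol alone in the platform annotation. All 10 were measured, among 19938 genes in all. Foxf1 had 2 such probe sets, and the one with the higher mean over the 8 arrays was used.

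RNA of mouse pancreatic buds at e12.5 was measured on Affymetrix gene arrays that read whole transcripts. The VEGF pool held fresh buds of 3 embryos with Pdx1-tTA and TET-VEGF, in which the Pdx1 promoter drives the tetracycline transactivator that switches on a VEGF transgene. The control pool held fresh buds of 3 littermates with Pdx1-tTA alone, so both fresh pools carried the transactivator. The other pools came from cultured wild type explants. Buds of e12.5 embryos were kept for 2 days with VEGFR2i, an inhibitor of VEGF receptor 2, or with vehicle, 5 per pool. Each of the 4 pools was hybridized to 2 arrays, the second being a technical repeat. There was thus 1 pool per condition, and every SD or range printed here measures hybridization error alone.

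The mesenchyme of the pancreatic bud derives from splanchnic mesoderm and feeds growth signals to the epithelium that it surrounds. The spleen arises in the same dorsal mesenchyme. In mice, loss of Tlx1, Nkx3-2 or Tcf21 disturbs or abolishes spleen formation, and Nkx3-2 is also needed to keep the splenic mesenchyme apart from the pancreas. Barx1 marks stomach mesenchyme and limits Wnt signalling there, Hlx is needed for growth of gut and liver, and Foxf1 is a hedgehog-responsive factor of splanchnic mesoderm. The Pdx1 promoter is active in the epithelium, so the transgene itself was driven from a tissue other than the mesenchyme.

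Whole buds were measured, and markers of mesenchyme and epithelium were both present. The mesenchymal receptor gene Pdgfra lay between 9.64 and 9.89 on the log2 scale over the 4 pool means, and the epithelial factor Pdx1 between 6.38 and 8.43. Ptf1a, a pancreatic factor, was dim in the fresh buds (3.88 and 3.96), and 5 of the 8 listed stomach and intestine genes (Sox2, Cdx2, Gkn1, Gkn2 and Muc5ac) lay between 3.06 and 3.60 in all pools. Of the other 3, the intestinal factor gene Cdx1 was brighter, at 5.04 to 5.23, and Tff1 was at 3.95 to 4.22. Tff2 was at 3.37 in VEGF buds and 3.54 in control buds, and the explants labelled VEGFR2i had 4.38 where those labelled vehicle had 5.03. The endothelial genes go against the labels of the explants. All 18 listed endothelial genes were on both arrays higher in the pool labelled VEGFR2i than in the pool labelled vehicle, although the inhibitor targets a receptor of endothelial cells, and directions are given for the explant pools as labelled. The median log2 value of an array was 4.08 to 4.12 in fresh buds but 4.29 to 4.33 in explants. In bulk RNA, fewer cells of a type and less RNA per cell cannot be told apart.

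None of the 10 factors was at the dim end of the arrays, their pool means lying between 5.05 and 9.60. The largest gap between the 2 arrays of a pool was 0.28, for Nkx2-5 in the pool labelled VEGFR2i, and no factor differed by 1.5-fold (0.58 on the log2 scale) between arrays of the same pool. The size rule called a gene higher or lower if the means of 2 pools were 1.5-fold or more apart and their arrays did not overlap. With 1 pool a group this is a rule of size and no test of the condition. Differences below are between pool means on the log2 scale, with the range over the 4 array pairs in square brackets.

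**Figure D1:**
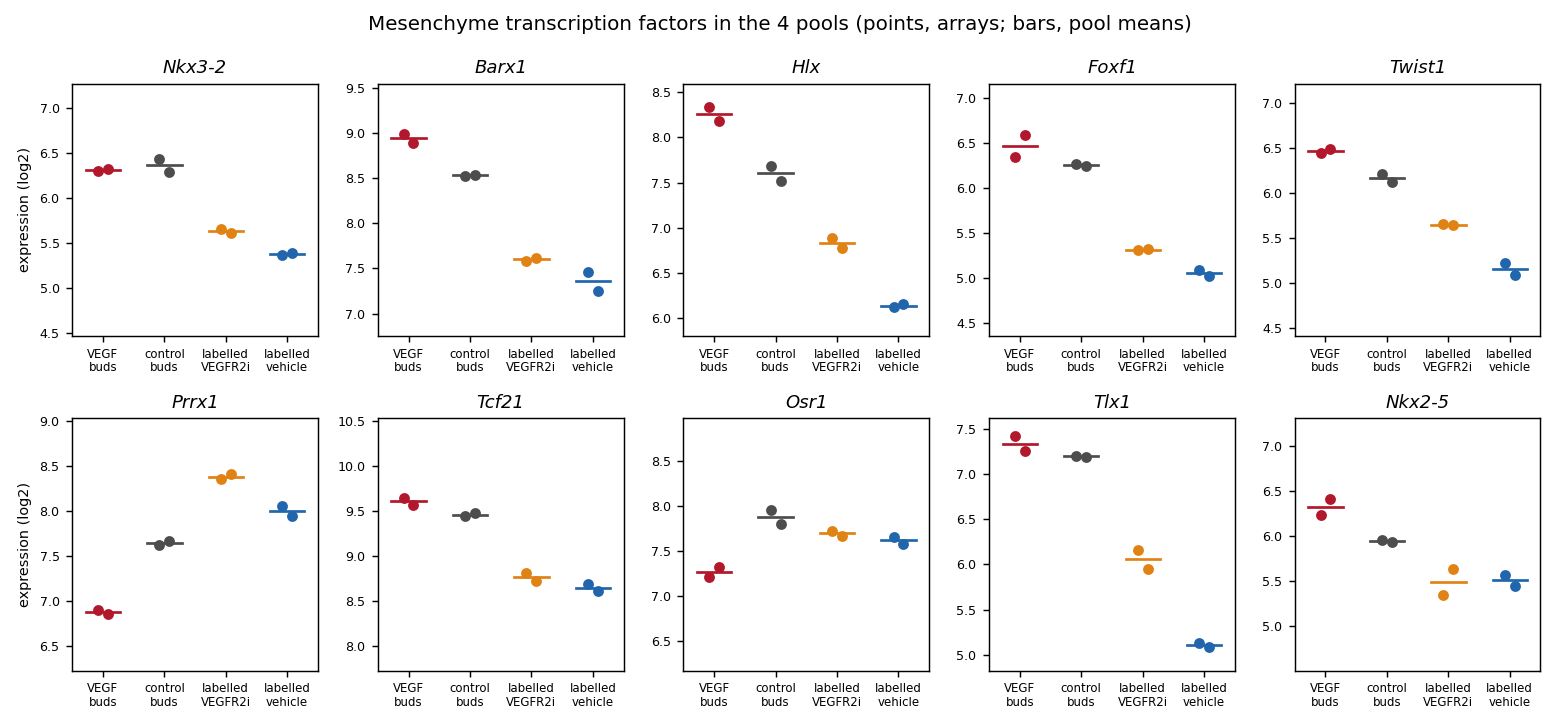
Expression (log2) of the 10 factors in the 4 pools. Points are arrays and bars are pool means, and every panel spans the same height on the log2 scale. For 8 factors all fresh arrays lie above all explant arrays, whereas Prrx1 has the opposite order and Osr1 is lowest in the VEGF buds.

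The first comparison asked how VEGF expressed from the Pdx1 territory changed the bud. Among the 10 factors Hlx was 1.58-fold higher in VEGF buds than in control buds, while Prrx1 was lower by 1.70-fold and Osr1 by 1.52-fold. The other 7 did not reach 1.5-fold. The count of 1 higher and 2 lower of 10 stands beside 0.552% of all genes higher and 0.933% lower by the same rule. At the level of non-overlap alone, 7 factors had both VEGF arrays above both control arrays and 2 had both below, where 23.7% and 21.6% of all genes did so. The median difference of the 10 was 0.18, against 0.00 over all genes.

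Hlx is a homeobox gene of gut and liver mesenchyme, and its human counterpart has also been described in endothelial cells stimulated with VEGF. Its values were 8.33 and 8.19 on the VEGF arrays, 7.68 and 7.52 on the control arrays, 6.89 and 6.77 in the pool labelled VEGFR2i, and 6.12 and 6.15 in the pool labelled vehicle. No 2 pools overlapped, and the order ran from VEGF buds through control buds and the pool labelled VEGFR2i to the pool labelled vehicle. The difference between VEGF and control buds was 0.66 [0.50, 0.81]. Without the second control array it was 0.58, just short of the size rule.

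The DNA upstream of Hlx is shown because this was the 1 factor of the 10 that was higher in both comparisons. RefSeq's promoter table (GRCm38.p6) held 8 of the 10 genes. Below are the 250 bases before the Hlx start, chr1:184732494-184732743 on the minus strand, with the letters CCAAT, or ATTGG on the other strand, in capitals.
Hlx: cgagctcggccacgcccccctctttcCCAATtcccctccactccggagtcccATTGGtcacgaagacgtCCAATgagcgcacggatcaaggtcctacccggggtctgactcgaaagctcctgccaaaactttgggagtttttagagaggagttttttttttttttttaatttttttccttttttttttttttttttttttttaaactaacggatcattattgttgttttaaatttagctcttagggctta
The CCAAT letters occurred 3 times there, starting 224, 198 and 181 bases before the start, and in the windows of 3 of the 8 genes (Hlx, Twist1 and Tlx1). Of 32817 windows of this length in the table, 33.8% held them, so their presence in these windows is close to the general share.

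Prrx1, the paired-related homeobox gene of limb and facial mesenchyme, ran the other way. Its arrays read 6.90 and 6.86 in the VEGF buds against 7.62 and 7.66 in the control buds, a difference of -0.77 [-0.80, -0.73]. This was the largest absolute difference of the 10 between the fresh pools. Osr1, a zinc finger factor of lateral plate and intermediate mesoderm, was at 7.21 and 7.32 against 7.95 and 7.80, a difference of -0.61 [-0.74, -0.48]. Both Osr1 arrays of the VEGF buds were below every other array of the series for that gene. Leaving out the first VEGF array gave -0.55 and leaving out the first control array gave -0.53 for Osr1, both short of the rule, whereas Prrx1 stayed between -0.79 and -0.74 in all settings.

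The spleen and stomach factors differed less. Barx1 read 9.00 and 8.89 in VEGF buds and 8.53 and 8.54 in control buds, a difference of 0.41 [0.35, 0.47]. Nkx2-5, a heart factor that is also expressed in the spleen primordium and the pyloric sphincter, read 6.23 and 6.41 against 5.96 and 5.93, a difference of 0.38 [0.27, 0.48]. The arrays did not overlap for either gene, although neither reached 1.5-fold. Tlx1, the homeobox gene most tied to the spleen, read 7.42 and 7.26 against 7.21 and 7.19, a difference of 0.14 [0.05, 0.23]. Nkx3-2 was the factor whose arrays overlapped between these pools, at 6.30 and 6.31 against 6.43 and 6.28.

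Among the remaining factors, Twist1, a basic helix-loop-helix (bHLH) factor of mesenchymal cells, was at 6.45 and 6.49 against 6.22 and 6.12, a difference of 0.30 [0.23, 0.36]. Foxf1 was at 6.34 and 6.58 against 6.26 and 6.24, a difference of 0.21 [0.08, 0.34]. The Foxf1 probe set not used here was dimmer, with a mean of 4.06 over the 8 arrays, and differed by 0.14 in the same direction. Tcf21, a bHLH factor of coelomic organs, had the closest pools of the non-overlapping genes beside Tlx1, at 9.65 and 9.56 against 9.44 and 9.47, a difference of 0.15 [0.09, 0.20].

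**Figure D2:**
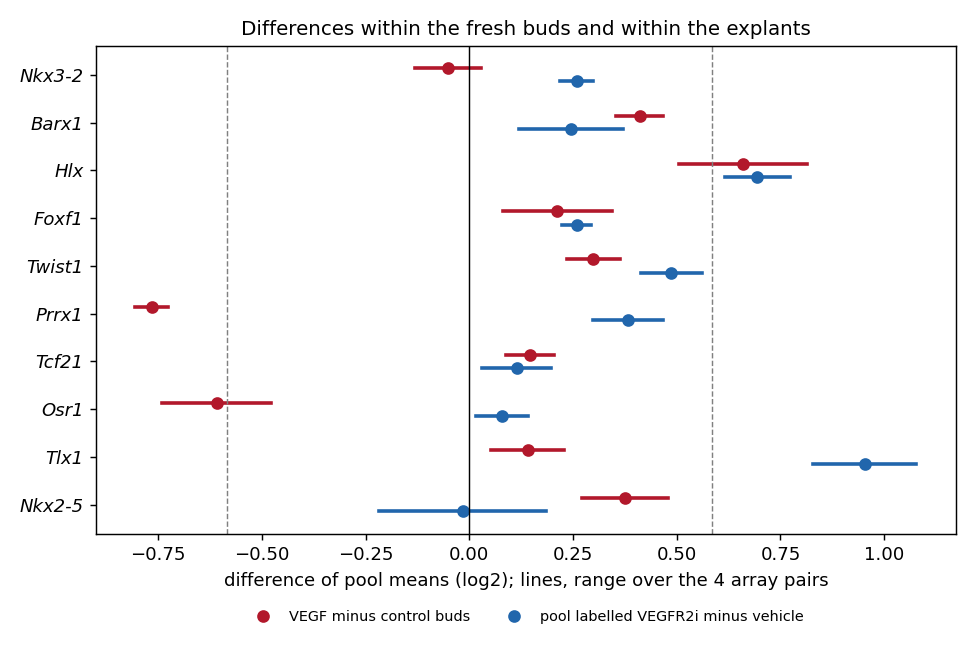
Differences of pool means (log2) for each factor, VEGF minus control buds in red and the pool labelled VEGFR2i minus the pool labelled vehicle in blue. Lines span the 4 array pairs and dashed lines mark 1.5-fold. Hlx lies past the right dashed line in both comparisons, Tlx1 (0.95) in the explants alone, and Prrx1 (-0.77) and Osr1 (-0.61) past the left one in the fresh buds alone.

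Other genes of the bud moved between the fresh pools, and their values stand beside the 10. Of 36 further mesenchymal transcription factors that were measured, none reached the size rule in either direction, and their median difference was 0.08, with Nr2f1 (0.55), Foxc1 (0.45) and the splenic and mesothelial factor Wt1 (0.34) among the most different. Of 23 genes of mesenchymal matrix and surface, the matrix protein Tnc (0.93) was higher and none was lower, and the median was 0.13. All 18 endothelial genes had VEGF arrays above control arrays, 7 of them by the size rule, with a median of 0.54. Their summed linear level ran from 5990 to 6121 over the VEGF arrays and from 3919 to 3969.9 over the control arrays, and only Sox17 (4.88) had a control mean below 5. Of 8 mesothelial genes, 5 were higher, with a median of 0.66 and sums of 676 to 699 against 418 to 433. Of 12 epithelial genes 6 were lower and none was higher, with a median of -0.61 and sums of 4512 to 4759.9 against 7552 to 7561. Red cell genes had 4 of 5 higher, a median of 1.01 and sums of 8293 to 8406 against 5585 to 5719. The liver genes Alb (2.37) and Afp (0.72) were higher too, with a median of 0.02 for the 10 genes of stomach, intestine and liver. Of 4 neural and glial genes Erbb3 (-0.79) was lower, with a list median of -0.28, and none of 10 leukocyte genes reached the rule. The part of these tissues in the values of Hlx, Prrx1 and Osr1 was not tested.

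Signals and targets linked to the 10 factors were followed as well, 18 of which were measured. Bmp4, a growth factor gene downstream of Foxf1 in splanchnic mesoderm, was higher in the VEGF pool by 0.85 [0.70, 0.99], at 7.10 against 6.25. It was the single gene of that list past the size rule. Fgf9, a growth factor gene of mesothelium and epithelium, differed by 0.56, at 7.02 against 6.46. The Wnt inhibitors Sfrp1 (0.08) and Sfrp2 (0.23), which Barx1 controls in stomach mesenchyme, differed little, as did the hedgehog targets Ptch1 (-0.07) and Gli1 (-0.00). The median of the list was 0.02.

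In the explants, the question was how the bud responds when VEGF receptor 2 is inhibited in culture. Tlx1 was higher in the pool labelled VEGFR2i by 1.94-fold and Hlx by 1.62-fold, and no factor was lower by the size rule. The count of 2 higher and 0 lower of 10 stands beside 1.82% of all genes higher and 0.371% lower. Both arrays of the pool labelled VEGFR2i lay above both vehicle arrays for 9 of the 10 factors and below them for none, where 25.9% and 25.0% of all genes did so. The median difference of the 10 was 0.26, against -0.00 over all genes.

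Tlx1 was at 6.16 and 5.95 in the pool labelled VEGFR2i but at 5.12 and 5.08 in the pool labelled vehicle, which put them 0.95 [0.83, 1.08] apart. The pools were far apart compared with their array SDs of 0.15 and 0.03, and the difference lay between 0.85 and 1.06 in all settings. Hlx differed by 0.69 [0.62, 0.77] between the same pools, with the values given above. It was higher by the size rule in both comparisons, as were 41 of the 19938 genes.

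The Tlx1 and Twist1 sequences that correspond to the Hlx letters are printed to show where they lie, as 30 bases of the plus strand each, together with the one stretch of the Tlx1 window that held the letters TGATTGAT. That motif is known as a site for Pbx and Hox factors and was picked after the windows had been seen. The matches, in capitals, lie within chr12:33957569-33957598 for Twist1, chr19:45150599-45150628 for the first Tlx1 stretch and chr19:45150660-45150689 for the second.
Twist1: tccccacgtcaggCCAATgacaccgctgcc
Tlx1 CCAAT: tctccacgcacagCCAATggagagacccgg
Tlx1 Pbx-Hox: ttttcgcccggTGATTGATgtcccagagtc
The TGATTGAT letters, or their reverse complement, occurred in 0.670% of the 32817 windows and in 1 of the 8 factors. Also searched on both strands were TATAAA (1 of 8 factors against 12.4% of windows), GGGCGG (3 of 8 against 32.7%) and CANNTG (3 of 8 against 66.2%). These are descriptions of letters in the windows.

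Twist1 came next among the explant differences, at 5.65 and 5.64 in the pool labelled VEGFR2i against 5.23 and 5.09, a difference of 0.49 [0.41, 0.56]. Prrx1 read 8.35 and 8.41 against 8.06 and 7.94, a difference of 0.38 [0.30, 0.47]. Its sign was thus opposite in the comparisons, with no overlap of arrays in either, and a difference between comparisons was not tested. Osr1 was nearly level in the explants, at 7.72 and 7.67 against 7.65 and 7.58.

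Nkx3-2 differed by 0.26 [0.22, 0.30], at 5.66 and 5.61 against 5.36 and 5.39. Foxf1 had the same difference, 0.26 [0.22, 0.29], at 5.31 and 5.32 against 5.08 and 5.02. Barx1 read 7.59 and 7.62 against 7.47 and 7.25, a difference of 0.25 [0.12, 0.37]. These shifts were small, and each exceeded the gap between the arrays of its pools. Tcf21 read 8.81 and 8.72 against 8.69 and 8.61, a difference of 0.11 [0.03, 0.20]. Nkx2-5 was the factor whose arrays overlapped, at 5.35 and 5.63 against 5.57 and 5.45.

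The pools labelled VEGFR2i and vehicle also differed in other cell types. The endothelial list had 17 of 18 genes higher, a median of 1.92, and summed linear levels of 2786 to 2832 against 579.6 to 609.5. In the pool labelled vehicle 14 of the 18 endothelial genes had means below 5, among them Cdh5 (4.56) and Pecam1 (4.31). Of 10 leukocyte genes 9 were higher, with a median of 0.97 and sums of 1010 to 1049 against 567 to 573. None of the 12 epithelial genes reached the rule, and their median difference was -0.16, with sums of 17221 to 17364 against 19255 to 19355. Red cell genes had 2 of 5 higher (Hbb-y and Hba-x), with a median of 0.21 and sums of 1138 to 1157 against 280.2 to 289.8. The other 3 red cell genes had means below 5 in both pools. None of the 8 mesothelial or 4 neural genes reached the rule, and Tff2 (-0.65) was the 1 gene of the stomach, intestine and liver list that was lower. The part of endothelial, leukocyte and red cell RNA in the values of Hlx and Tlx1 was not tested.

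Of the 36 further mesenchymal transcription factors, 7 were higher in the pool labelled VEGFR2i and none was lower, with a median of 0.22. They were Ebf1 (1.76), Tbx2 (0.71), Snai1 (0.69), Zeb1 (0.68), Zeb2 (0.67), Foxc2 (0.67) and Nr2f1 (0.63). Snai1, Zeb1 and Zeb2 are known from epithelial to mesenchymal transitions, and Ebf1 acts in blood and stromal cells. Of 23 matrix and surface genes 5 were higher, Thy1 (1.23), the pericyte receptor Pdgfrb (1.15), Postn (0.75), Tnc (0.66) and the smooth muscle gene Tagln (0.61), and the median was 0.25. The median of the 10 factors was therefore near those of both mesenchymal lists. Among the linked signals and targets, Aldh1a1, a retinoic acid synthesis gene that Tlx1 restrains in the mouse spleen primordium, was lower, with a difference of -0.90 [-0.92, -0.89], as was the hedgehog inhibitor gene Hhip with -0.66 [-0.93, -0.40]. Sfrp1 (0.50) and Bmp4 (0.33) did not reach the rule.

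**Figure D3:**
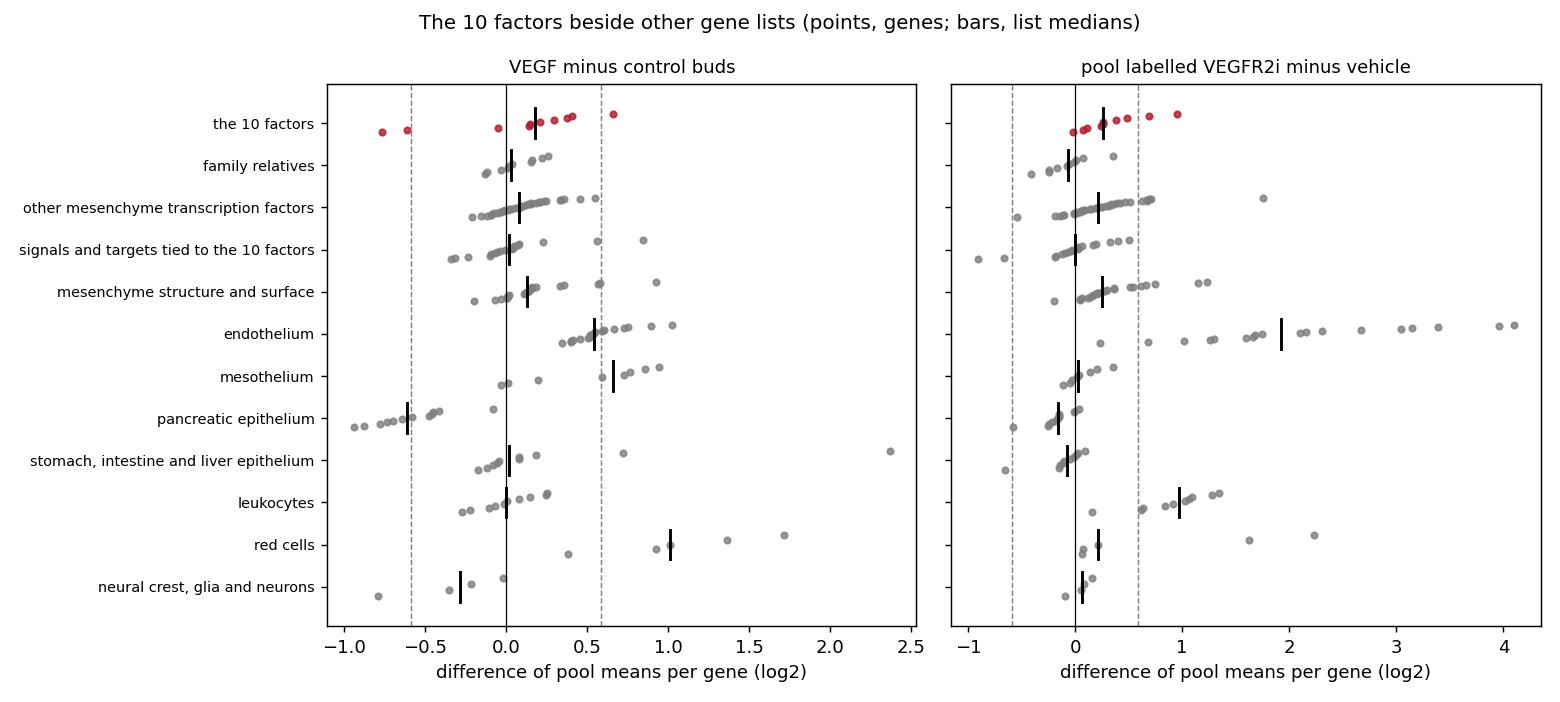
Difference of pool means (log2) for every measured gene of each list, for VEGF minus control buds on the left and the explant pools on the right. Black bars are list medians and dashed lines mark 1.5-fold. The 10 factors, in red, have medians of 0.18 and 0.26, beside 0.54 and 1.92 for endothelium.

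Across the 4 pools, most factors were at their highest in the fresh buds. All 4 fresh arrays lay above all 4 explant arrays for 8 of the 10, where 9.60% of all genes had that order and 54.0% the reverse. These background shares depend on scaling: after quantile normalization of the 8 arrays together they were 27.2% and 27.4%, while 8 factors still had fresh arrays on top. Fresh buds and explants also differ in genotype and days in culture, which cannot be told apart. Of the 36 further mesenchymal factors 18 had fresh arrays on top, against 3 of 23 matrix and surface genes, 14 of 18 endothelial genes and 0 of 12 epithelial genes. All 12 epithelial genes had the reverse order, and the part of a larger epithelial share in the lower levels of the factors was not tested.

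From control buds to the pool labelled vehicle the largest difference of the 10 was that of Tlx1, at -2.10, a 4.28-fold higher level in control buds. Hlx followed with -1.47, then Foxf1 with -1.20, Barx1 with -1.18, Twist1 with -1.01, Nkx3-2 with -0.98, Tcf21 with -0.81 and Nkx2-5 with -0.44. The median over the 10 was -0.996, whereas over all genes it was 0.17. Quantile normalization moved these medians to -1.31 and 0.00. In the pool labelled VEGFR2i the same genes lay nearer the control buds except for Nkx2-5 (-0.45), with Tlx1 at -1.14 and Hlx at -0.77.

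Prrx1 and Osr1 stood apart from that order. Prrx1 was lowest in VEGF buds, followed by control buds and the pool labelled vehicle, and highest in the pool labelled VEGFR2i, with no overlap between neighbouring pools. Its order of explants above fresh buds was lost after quantile normalization, under which no factor had it. In the values as deposited, all 12 epithelial genes and 54.0% of all genes also had that order. The part of epithelial RNA in the Prrx1 values was not tested. Osr1 was highest in control buds (7.87), and its explant means of 7.69 and 7.62 lay between control and VEGF buds (7.26). Neighbouring explant pools of Osr1 differed by 0.08, with the closest arrays 0.02 apart. Nkx3-2 in fresh buds and Nkx2-5 in explants were the only neighbours in order whose arrays overlapped among the 10 factors.

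Of 10 measured family relatives of the factors, none reached the size rule in either comparison, and the median differences were 0.03 in the fresh buds and -0.07 in the explants. Many were dim, with pool means below 5 for 7 relatives in the fresh pools and 6 in the explant pools. Twist2, the close relative of Twist1, differed by 0.04 between fresh pools and by 0.00 between explant pools, where Twist1 differed by 0.30 and 0.49. From control buds to the pool labelled vehicle it differed by -0.79. Prrx2 differed by 0.22 in the fresh buds and 0.08 in the explants, set against -0.77 and 0.38 for Prrx1.

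Osr2 was the relative with the widest span. It was at 4.08 and 4.21 in VEGF and control buds and at 7.07 and 7.24 in the pools labelled VEGFR2i and vehicle, while Osr1 stayed between 7.26 and 7.87. Nkx2-3, a homeobox gene needed for spleen and gut development, followed the order of Tlx1, at 7.32, 7.16, 6.18 and 5.83 over VEGF buds, control buds, the pool labelled VEGFR2i and the pool labelled vehicle. Its explant difference was 0.35 [0.26, 0.45], short of the rule.

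**Figure D4:**
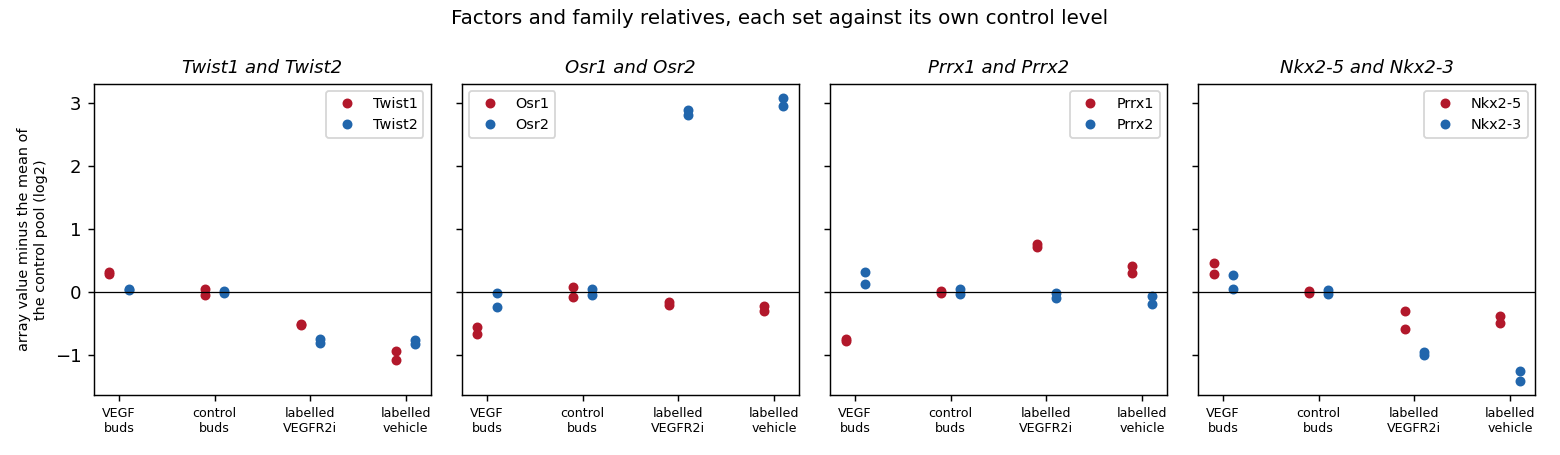
Array values of 4 factors (red) and a relative of each (blue), as the log2 difference from the mean of that gene's control pool. Osr2 lies near 3 above its control level in the explants while Osr1 stays below 0, and in VEGF buds Prrx1 lies 0.77 below its control level and Prrx2 0.22 above its own.

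The genes with the most similar pool profiles were sought for the 6 factors whose pool means spanned at least 1, namely Barx1, Hlx, Foxf1, Twist1, Prrx1 and Tlx1. Likeness was the Euclidean distance between centred profiles of the 4 pool means, over 2470 genes that spanned at least 1. Symbols of predicted or clone-named genes and of olfactory and vomeronasal receptors were left out of that number. With 4 points, many genes can come close, and the distances are a description. Nearest to Tlx1 were Mef2c (distance 0.10), Itga9 (0.13) and Itga4 (0.18). Mef2c differed by 0.21 between the fresh pools and by 1.04 between the explant pools, beside 0.14 and 0.95 for Tlx1. Nearest to Hlx were Thsd1 (0.12), Fgd5 (0.13) and St8sia4 (0.13), and Thsd1 differed by 0.52 and 0.78 in the fresh and explant pairs. Prrx1 was followed by Sned1 (0.12), Pla2g2d (0.20) and Ttyh1 (0.21). For Foxf1 the closest were Phactr2 (0.05), Hand2 (0.07) and Pdlim3 (0.09). Twist1 was closest to Cyria (0.08), Ccn4 (0.09) and Filip1 (0.11), and Barx1 to Rabl2 (0.08), Fam13c (0.12) and Pgm5 (0.12).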

How the data were processed

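The authors deposited 1 log2 signal for each probe set. The series' design text names RMA and Partek Genomic Suite 6.5, and the range of 2.41 to 13.57 fits a log2 scale. RMA can compress differences of dim genes. No source used here states whether the 8 arrays were normalized together. Of 35399 probe sets, 21789 had 1 gene symbol, 1621 several and 11989 none listed. A gene with several was represented by its brightest on average, leaving 19938 genes. Entrez IDs of all 10 factors matched RefSeq (GRCm38.p6).

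Technical repeats of a pool are not replicates of a condition, so genes were selected by size (1.5-fold and no overlap of arrays) over all genes, with no p-value for a condition. The code applying the rule was tested on simulated data with array noise alone. Python 3.11.15, pandas 2.3.3 and scipy 1.17.1 were used. The factors and the 11 other lists were chosen with earlier results of these data known. Of 174 listed genes 164 were measured; the others were not analysed here. Named genes were all 10 factors, those past the size rule or among the 4 largest absolute differences of each other list and comparison, and the 3 nearest profiles per factor. Pdx1, Sox2, Cdx1, Gkn1, Gkn2, Muc5ac, Pdgfra, Sfrp2, Ptch1, Gli1, Sox17, Twist2 and Osr2 fall outside that rule and were chosen after their values were seen. Alternatives were other thresholds, probe sets, scalings, a filter on dim genes, each array left out, and the methods' t-test on arrays. The precision is limited by 2 arrays per pool.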

Additional observations from a re-analysis of the deposited data

How the results depend on the processing

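The 10 factors kept their count under the other scalings: 3 past the size rule in the fresh buds and 2 in the explants. The count was also the same with the mean of all probe sets and with the filter on dim genes. Those settings could barely change it, since only Foxf1 had a second probe set and the filter removed none of the 10. At 1.3-fold the counts were 4 and 4, and at 2-fold 0 and 0. Over all genes, 1.3-fold gave 770 in the fresh buds and 920 in the explants, and 2-fold gave 50 and 133. With the methods' t-test on the arrays, which measures hybridization error alone, 3 and 2 factors and 271 and 405 genes had both 1.5-fold and an unadjusted p under 0.05. After Benjamini-Hochberg adjustment 0 and 0 factors and 0 genes and 1 gene were left. Without 1 array in turn the fresh buds gave 2 to 3 factors (Hlx or Osr1 lost) and the explants 2. The median difference in the fresh buds was 0.18, and it was 0.16 with the mean of all probe sets, 0.19 after quantile normalization, 0.20 with array medians subtracted and 0.18 to 0.21 without 1 array. In the explants it was 0.26, with 0.25 for the mean of all probe sets and 0.23 after quantile normalization. It was 0.28 there with array medians subtracted and 0.25 to 0.32 without 1 array. For factors and genes of the other lists past the size rule, no direction turned in any setting. Factors short of the rule could turn. Nkx3-2 ran from -0.12 to 0.02 over the settings in the fresh buds, and Nkx2-5 from -0.16 to 0.13 in the explants. Some other listed genes short of the rule turned too, such as Tlx2 in the fresh buds (-0.03, but 0.16 without the first VEGF array). Turns among such genes were not counted. Across sets, 8 factors had fresh arrays on top in every setting, which were added after seeing the data. No paired analysis was possible because each condition was 1 pool and array numbers only mark technical repeats.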
